A study of Homo sapiens with 48 samples.

Results

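The genes described here are 30 that a human cell uses to make, sense, move, store and export cholesterol. They were taken by gene symbol from a table of read counts over 61815 genes, and all 30 were found and passed the filter on low counts. By role they comprise 18 synthesis enzymes, 5 sterol sensing genes, 3 targets of the liver X receptor (LXR) and 4 genes of transport and storage. The RNA came from 22Rv1, a castration-resistant line of human prostate cancer, and from 5 derivatives. The parental cells are called Rv1-WT, and Rv1-Luc is a subline of them that expresses luciferase. The other 4 lines share a CRISPR/Cas9 double knockout of CDK8 and CDK19, the kinases of the Mediator complex, into which 1 kinase had been returned by lentivirus. Human wild-type kinase is re-expressed in dKO-8 (CDK8) and dKO-19 (CDK19), and the D173A kinase-dead mutant of the respective kinase in dKO-8M and dKO-19M. The CDK8 lines were made from knockout cells that already carried an insert-free vector, the CDK19 lines from the knockout cells directly, and whether the knockout is 1 clone is not given in the sources used here. Treatment lasted 72 hours, with SNX631, which inhibits CDK8 and CDK19, at 500 nM or with 0.1% DMSO, the vehicle. All 6 lines were grown with fetal bovine serum (FBS). Rv1-WT and Rv1-Luc were also grown with charcoal-stripped serum (CSS), from which charcoal has removed steroid hormones and other lipophilic compounds. The 16 groups hold 3 libraries each. Cells for CSS were first passaged in CSS and were seeded at 300000 per well instead of 200000, so serum, passage and density cannot be told apart.

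Cholesterol is built from acetyl-CoA through mevalonate, farnesyl diphosphate, squalene and lanosterol. When sterols are scarce in the endoplasmic reticulum, SCAP escorts the transcription factor SREBP2, the product of SREBF2, to the Golgi, where it is cut and released to switch on the synthesis genes, INSIG1 and STARD4. When sterols are plentiful, INSIG proteins hold SCAP back, and oxysterols activate LXR, which raises the cholesterol exporters ABCA1 and ABCG1 and MYLIP, an E3 ubiquitin ligase that targets lipoprotein receptors for degradation. Prostate cancer cells draw on this pathway for membranes, and cholesterol is the precursor of androgens.

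The libraries hold between 13.2 and 31.5 M counts (M, mega), namely 13.2 to 18.2 M in Rv1-WT and 19.5 to 27.3 M in Rv1-Luc. RNA counted at the CDK8 gene lay at 59.1 to 68.9 CPM (counts per M of the library total) in dKO-8 and 114 to 129 in dKO-8M. Rv1-WT had 26.9 to 29.6 CPM, below both. In dKO-19 and dKO-19M, to which no CDK8 was returned, it lay at 23.8 to 26.7 and 24.8 to 26.4 CPM. CDK19 lay at 447 to 480 CPM in dKO-19, above the 151 to 294 of Rv1-WT, and at 278 to 343 in dKO-19M, which overlaps it. To dKO-8 and dKO-8M no CDK19 was returned, and it lay there at 97.7 to 132 and 118 to 121 CPM. The counts thus do not separate the returned kinase from RNA of the knocked-out gene. These are RNA levels and say nothing of the protein. By Western blot the authors report less CDK8 protein in dKO-8 than in parental cells. All 6 prostate luminal markers had counts in every library, but the dKO lines differed in their level: under vehicle in FBS, on the scaled totals used further on, FOLH1 had a mean of 347 CPM in Rv1-WT and 5.81 to 28.9 in the 4 dKO lines, and KRT8 445 CPM and 2116 to 2986. The 5 plasma cell markers summed to 0 to 0.512 CPM in the Rv1-WT libraries. In Rv1-Luc they summed to 17.9, 24.2 and 9.47 CPM in FBS under vehicle, 2.08, 9.96 and 1.48 CPM in FBS under SNX631, 1.72, 3.91 and 1.93 CPM in CSS under vehicle and 16.7, 12.1 and 4.47 CPM in CSS under SNX631, so the sums differed between groups of that line, with some overlap between treatments. None of the 5 had counts in every library. Of the fibroblast markers 3 passed the filter. LUM was called higher under SNX631 in both lines and media, by 0.69 to 1.11 on the log2 scale. COL1A1, the only fibroblast marker with counts in every library, went the other way in both lines and media, without a call. Its changes were -0.16 and -0.23 in Rv1-WT and -0.13 and -0.10 in Rv1-Luc (FBS and CSS). DCN, the other that passed the filter, rose with LUM, by 1.84 and 2.79 in Rv1-WT and 0.65 and 2.56 in Rv1-Luc. It was not called and held at most 13 counts in a library. Of the 3 markers, 2 thus lay above 0 and 1 below in each of these comparisons. The part of these markers in the results was not tested. By the chi-square per degree of freedom between replicates, the libraries farthest from their group were replicate 1 of Rv1-Luc in FBS under vehicle (5.14 and 9.69 against its partners) and replicate 1 of dKO-19M under vehicle (17 and 17.7). For the members in comparisons that hold either library, counts, medians or changes without it stand beside the result.

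The promoters of 5 members on which the results turn are shown first, since SREBP2 and LXR act through short motifs near gene starts. RefSeq windows on GRCh38.p14, from 250 bases before to 50 bases after the annotated start, were matched for 26 of the 30 members. SQLE, ACAT2, ABCG1 and FDFT1 had no window. The stretches printed are the last 180 bases before the start, 5′ to 3′ on the strand of the gene: HMGCS1 at chr5:43313413-43313592 (minus strand), INSIG1 at chr7:155297698-155297877 (plus), LSS at chr21:46228775-46228954 (minus), SREBF2 at chr22:41832925-41833104 (plus) and ABCA1 at chr9:104928156-104928335 (minus). HMGCS1 and INSIG1 were called most often under SNX631, LSS was the member whose response to SNX631 was called different between media, SREBF2 encodes the regulator, and ABCA1 is an exporter called in CSS. Capitals mark exact matches, on either strand, to 4 motifs. The sterol element, bound by SREBP2, was searched as TCACNCCAC. The box bound by the factor NF-Y was searched as CCAAT and thus appears as ATTGG where it lies on the opposite strand. The box bound by the factor Sp1 was searched as GGGCGG and appears as its reverse complement where it lies on the opposite strand. The last is an LXR-type direct repeat spaced by 4 bases.
HMGCS1: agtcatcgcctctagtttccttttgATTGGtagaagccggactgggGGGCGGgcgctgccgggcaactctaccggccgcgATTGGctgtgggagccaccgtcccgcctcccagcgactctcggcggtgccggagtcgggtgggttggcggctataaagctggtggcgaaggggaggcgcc
INSIG1: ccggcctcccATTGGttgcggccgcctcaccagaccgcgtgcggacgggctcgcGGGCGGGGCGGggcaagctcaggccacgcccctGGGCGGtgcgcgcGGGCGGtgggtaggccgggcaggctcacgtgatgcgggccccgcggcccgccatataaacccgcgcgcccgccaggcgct
LSS: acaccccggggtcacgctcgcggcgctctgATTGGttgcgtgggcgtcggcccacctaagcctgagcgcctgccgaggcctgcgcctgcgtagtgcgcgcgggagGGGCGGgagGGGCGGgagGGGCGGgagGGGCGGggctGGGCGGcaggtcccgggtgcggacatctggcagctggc
SREBF2: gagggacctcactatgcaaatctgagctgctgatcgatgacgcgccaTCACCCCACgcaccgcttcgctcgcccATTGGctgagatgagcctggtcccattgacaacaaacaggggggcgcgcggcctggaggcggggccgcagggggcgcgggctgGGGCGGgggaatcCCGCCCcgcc
ABCA1: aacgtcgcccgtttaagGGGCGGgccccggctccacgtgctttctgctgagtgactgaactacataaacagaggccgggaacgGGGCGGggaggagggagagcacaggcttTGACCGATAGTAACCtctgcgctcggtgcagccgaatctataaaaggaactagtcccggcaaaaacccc

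Only SREBF2, among the 26 members with a window, held the sterol element, as TCACCCCAC at bases -133 to -125 from the start, and 1.13% of all 35116 promoters held it. The NF-Y box was present in 12 of the 15 synthesis promoters (80%) and in 34.6% of all promoters. The Sp1 box was present in 14 of these 15 (93.3%) and in 45% of all promoters. In HMGCS1 the ATTGG runs lie at -155 to -151 and at -100 to -96, and in INSIG1 the run lies at -170 to -166. ABCA1 alone among the 26 held the direct repeat, at -69 to -55, and 0.626% of all promoters held it. A match is a description of the letters and not a bound site. Only exact letters within the window were searched, so the absence of a match does not show that a promoter lacks a site.

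In what follows, levels are in CPM of the library total scaled by TMM, a log2 change is the difference of fitted group means with its standard error (SE), and FDR is the p-value of edgeR's quasi-likelihood test after Benjamini-Hochberg adjustment over 20009 genes. A gene was called at an FDR under 0.01 with a change over 1.5-fold, and a looser count takes an FDR under 0.05 with no limit on fold. Medians over a list stand beside a median of all genes that lay between -0.02 and 0.01 in every comparison. The p-values measure the spread between these cultures, whose independence the labels do not state. In bulk RNA, fewer cells of a kind and less RNA per cell cannot be told apart. The 8 effects of SNX631 and the comparisons between lines and media share vehicle libraries, so each is described by its own values.

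**Figure D1:**
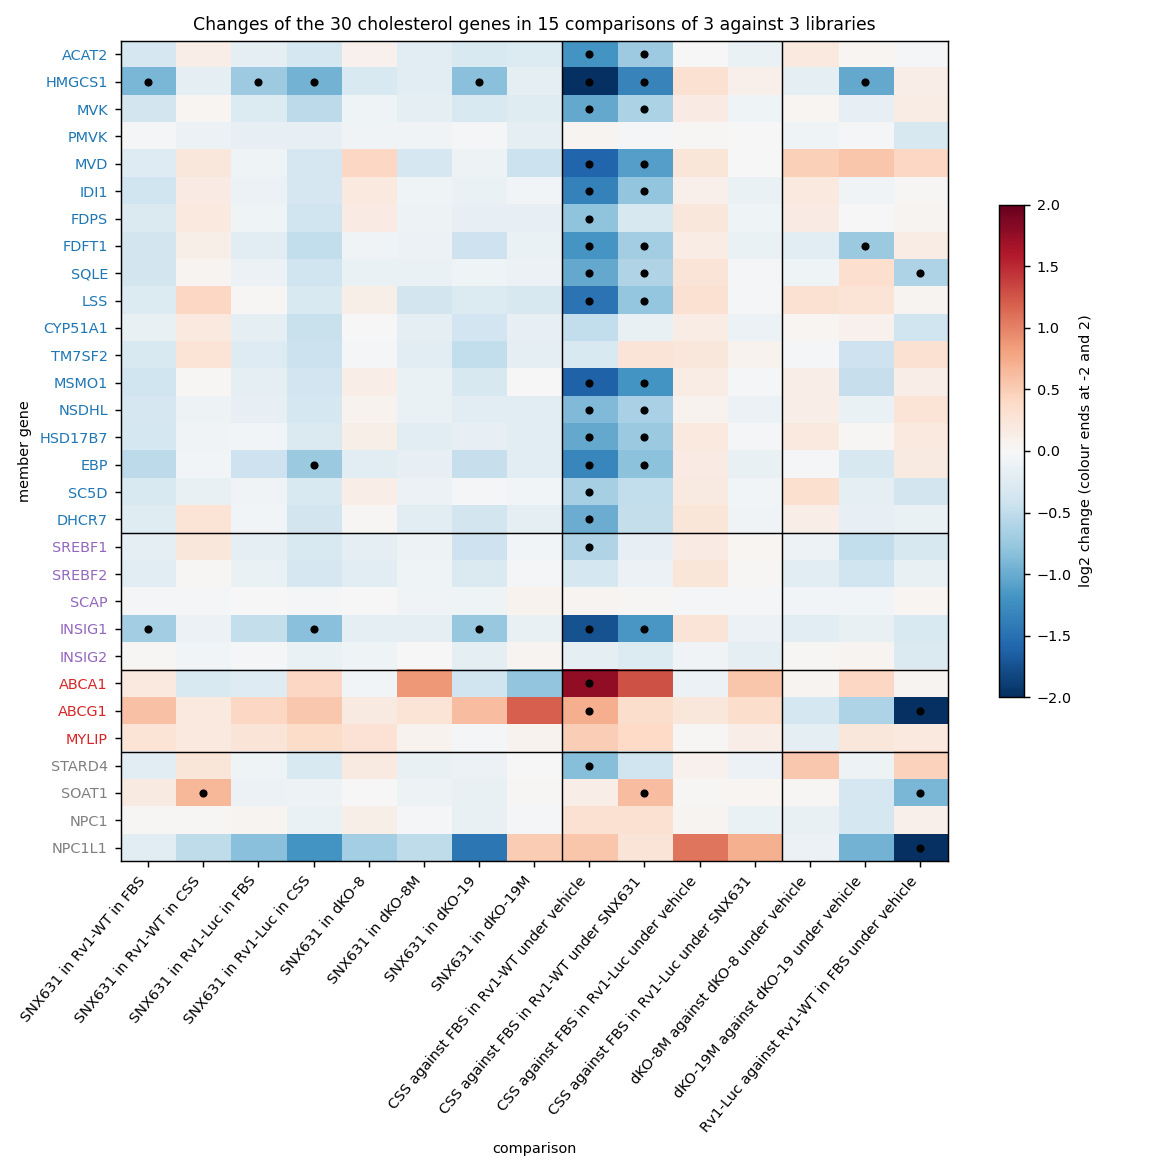
Log2 changes of the 30 members (rows, coloured by role: blue synthesis, purple sensing, red LXR targets, grey transport and storage) in 15 comparisons of 3 against 3 libraries (columns), with a dot where a gene was called. The strongest column is CSS against FBS in Rv1-WT under vehicle, where HMGCS1 changed by -2.05 and ABCA1 by 1.78, while the column for Rv1-Luc under vehicle holds no dot.

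The first question was what kinase inhibition does to these genes in the parental line in FBS. There, synthesis enzymes and INSIG1 fell and LXR targets lay above vehicle. All 18 synthesis enzymes had a log2 change below 0, with a median of -0.34, and 15 of them passed the looser count. Over the 30 members, 18 fell and 2 rose at an FDR under 0.05, where 14.5% of all genes passed, and 2 were called, both lower, where 2.39% of all genes were called. The 2 called genes were HMGCS1, which makes the HMG-CoA from which mevalonate is formed, and INSIG1, which retains SCAP in the endoplasmic reticulum and is itself a target of SREBP2.

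HMGCS1 measured 793, 853 and 776 CPM under vehicle and 405, 455 and 428 CPM under SNX631. Every treated library lay below every vehicle library, and the log2 change was -0.91 (SE 0.137, FDR 6.68e-06), a 1.88-fold fall. INSIG1 measured 550, 557 and 548 CPM under vehicle and 322, 362 and 345 CPM under SNX631, again without overlap, with a change of -0.69 (SE 0.106, FDR 1.03e-05). These are the genes at the entry to the mevalonate pathway and at its sterol brake. EBP, the isomerase that acts on late sterol intermediates, fell by 0.53 on the log2 scale (FDR 2.23e-07), and MVK, which phosphorylates mevalonate, fell by 0.36 (FDR 3.48e-07). SQLE, the squalene epoxidase that commits squalene to sterols, went from 149, 149 and 141 CPM to 109, 122 and 111 CPM, a change of -0.37 (FDR 0.00451). Of the 18 enzymes 3 did not pass the looser count in this comparison: PMVK at -0.02, CYP51A1 at -0.15 and MVD at -0.26, with FDR values of 0.894, 0.18 and 0.0614. SREBF2 itself fell from 755, 770 and 781 CPM to 667, 652 and 670 CPM, a change of -0.21 (FDR 0.0013). SCAP and INSIG2, the other INSIG protein, did not pass (FDR 0.885 and 0.921).

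Of the 3 LXR targets 1 passed the looser count. MYLIP rose from 16.2, 14.2 and 17.3 CPM to 20.8, 17.6 and 19.4 CPM, a change of 0.28 (SE 0.0732, FDR 0.00421), with every treated library above every vehicle library. ABCG1 stood at 40, 36 and 22 counts under vehicle and 54, 49 and 46 counts under SNX631, a change of 0.58 that did not pass (FDR 0.113) although the groups did not overlap. ABCA1 had 6 to 10 counts under vehicle and 8 to 11 under SNX631, which gives no usable comparison at this depth. ABCA1 held 1 to 37 counts, ABCG1 1 to 73 and NPC1L1 0 to 75 over all 48 libraries, with 4, 2 and 5 libraries at or under 3 counts, the floor used per library, so their changes carry large errors throughout.

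The same treatment was then read in CSS. There the fall of the synthesis genes was not seen: the synthesis median was 0.09, no member was called lower, and SOAT1 was the single gene called (4.23% of all genes were called). SOAT1, which esterifies cholesterol for storage in lipid droplets, measured 116, 129 and 122 CPM under vehicle and 183, 204 and 199 CPM under SNX631, a change of 0.67 (SE 0.0482, FDR 2.13e-17) with no overlap. By the looser count 8 members rose and 0 fell, a share close to the 26.5% of all genes that passed. They included LSS, which cyclizes squalene epoxide to lanosterol (0.42, FDR 0.00145), DHCR7, which catalyzes a last step to cholesterol (0.28, FDR 0.000534), TM7SF2, a sterol reductase (0.27, FDR 0.000239), and MYLIP (0.20, FDR 0.0181). HMGCS1 stood at 185, 200 and 199 CPM under vehicle and 152, 193 and 166 CPM under SNX631, which overlap, with a change of -0.19 (FDR 0.375). INSIG1 changed by -0.11 (FDR 0.519).

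Whether the response to SNX631 differed between media was tested by the interaction, the effect in CSS minus that in FBS. Among the members, 16 differed at an FDR under 0.05, all with a higher value in CSS, where 3.13% of all genes differed. The median over synthesis enzymes was 0.48. TM7SF2 (0.57, FDR 3.28e-06), DHCR7 (0.53, FDR 7.39e-05), MVK (0.40, FDR 0.000514) and SOAT1 (0.49, FDR 1.72e-06) had the lowest p-values, and HMGCS1 differed by 0.72 (FDR 0.0348) and INSIG1 by 0.57 (FDR 0.0299). At the stricter rule 1 member was called, LSS, at 0.70 (SE 0.137, FDR 0.00202), where 0.295% of all genes were called. LSS went from 330, 315 and 308 CPM to 268, 253 and 266 CPM in FBS and from 107, 115 and 120 CPM to 139, 168 and 151 CPM in CSS, so its libraries separated in opposite directions. Its call was lost without replicate 1 of the CSS vehicle group (FDR 0.0124) or replicate 2 of the CSS SNX631 group (FDR 0.0127). No member was called without either of these, and 2 were called when any of 8 of the other 10 libraries was left out. The 3 LXR targets had interaction values from -0.50 to -0.09, none of which passed (FDR 0.666 to 0.806).

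In Rv1-Luc in FBS, SNX631 lowered HMGCS1 and, to a lesser extent, INSIG1, EBP and MVK. HMGCS1 was the 1 member called, a share close to the 3.67% of all genes called, and by the looser count 7 members fell and 1 rose, where 20.3% of all genes passed. HMGCS1 measured 579, 1099 and 977 CPM under vehicle and 549, 610 and 437 CPM under SNX631, and vehicle replicate 1 lies among the treated libraries. The change was -0.73 (SE 0.134, FDR 8.84e-05) with all vehicle libraries, and -0.96 (FDR 1.02e-08) without replicate 1. INSIG1 measured 338, 524 and 487 CPM under vehicle and 357, 344 and 273 CPM under SNX631, a change of -0.47 (FDR 0.000965) that became -0.64 (FDR 1.22e-06) and a call without replicate 1. Without that library 18 members fell and 1 rose at an FDR under 0.05, and the synthesis median went from -0.16 to -0.26. Without replicate 2, HMGCS1 changed by -0.55 and no member was called. With the spread estimated from these 6 libraries alone, HMGCS1 was not called (FDR 0.218). MYLIP, the 1 member that rose, went from 18.2, 17.3 and 18.9 CPM to 21.6, 22.1 and 21.2 CPM, a change of 0.25 (FDR 0.00175) with no overlap. JCHAIN was called lower under SNX631 here (-1.83, FDR 0.000256).

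In Rv1-Luc in CSS the fall covered the whole synthesis list. All 18 enzymes passed the looser count as lower, with a median of -0.38, and over the members 22 fell and 1 rose, where 23.9% of all genes passed. The stricter rule called 3 members lower, where 4.06% of all genes were called. EBP fell from 178, 170 and 169 CPM to 112, 102 and 95.5 CPM, a change of -0.74 (SE 0.0671, FDR 6.67e-12). INSIG1 fell from 581, 490 and 528 CPM to 336, 326 and 237 CPM, a change of -0.83 (FDR 1.48e-07). HMGCS1 fell from 1213, 1018 and 1055 CPM to 640, 619 and 455 CPM, a change of -0.94 (FDR 1.63e-06). None of the 3 overlapped between treatments, although with the spread of these 6 libraries alone HMGCS1 (FDR 0.022) and INSIG1 (FDR 0.0303) were not called. SREBF2 fell from 823, 812 and 823 CPM to 661, 685 and 594 CPM (-0.34, FDR 1.64e-07). MYLIP rose from 18.3, 17.8 and 19.6 CPM to 24.5, 24 and 22.7 CPM (0.36, FDR 1.03e-05), while ABCA1 (0.41, FDR 0.58) and ABCG1 (0.54, FDR 0.271) did not pass.

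The 2 interactions of the SNX631 effect that involve the luciferase line called no member. For the SNX631 effect in CSS minus FBS in Rv1-Luc, edgeR and DESeq2 each called 0 members, where 0.08% of all genes were called. There, 14 members had an unadjusted p under 0.05, all negative, against 9.33% of all genes, and 0 had an FDR under 0.05 (0.51% of all genes). The synthesis median was -0.24, and -0.13 without FBS vehicle replicate 1. Of the plasma cell markers JCHAIN was called higher in the same interaction (3.26, FDR 0.00128). For the effect in Rv1-Luc minus Rv1-WT in FBS, both tools called 0 members, where 0.175% of all genes were called, and 7 members had an unadjusted p under 0.05, against 11.9% of all genes. HMGCS1 differed between these lines by 0.18 (SE 0.19) and INSIG1 by 0.22 (SE 0.148), neither past the test. Without Rv1-Luc FBS vehicle replicate 1 they differed by -0.05 and 0.05, and the synthesis median went from 0.17 to 0.06. SOAT1 was the 1 member with an FDR under 0.05, at -0.29 (FDR 0.0193; -0.34, FDR 0.00255, without that library), where 1.48% of all genes passed.

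The dKO derivatives ask whether the response needs the activity of 1 or the other kinase. Each is a separate derivative, so the returned kinase and the line cannot be told apart. In dKO-19, which carries active CDK19, SNX631 lowered the sterol genes. There, 15 members fell and 0 rose at an FDR under 0.05, where 20.6% of all genes passed, and 2 were called, where 3.41% of all genes were called. All 18 synthesis enzymes lay below 0, with a median of -0.28. HMGCS1 fell from 1452, 1535 and 1477 CPM to 827, 842 and 832 CPM, a change of -0.84 (SE 0.134, FDR 1.07e-05). INSIG1 fell from 473, 451 and 459 CPM to 272, 277 and 270 CPM, a change of -0.76 (SE 0.105, FDR 1.02e-06). In both genes all treated libraries lay below all vehicle libraries and the replicates were close together. TM7SF2 (-0.50, FDR 1.29e-10), EBP (-0.46, FDR 7.35e-07), SREBF1, which encodes SREBP1 (-0.42, FDR 1.17e-05), and FDFT1, the squalene synthase (-0.41, FDR 0.000106), also fell without reaching 1.5-fold. SREBF2 fell from 1164, 1080 and 1084 CPM to 913, 896 and 905 CPM (-0.29, FDR 4.02e-06). The LXR targets had a median of -0.04, and MYLIP stayed at 23.9, 23.5 and 24.2 CPM under vehicle and 23.6, 23.6 and 22.6 CPM under SNX631 (-0.04, FDR 0.754).

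In dKO-8, which carries active CDK8, the synthesis list had no common direction, with 10 enzymes above 0 and 8 below. Its median was 0.04, and edgeR and DESeq2 each called 0 members, where 1.71% of all genes were called. At an unadjusted p under 0.05 there were 11 members, against 25.3% of all genes, and 4 passed the looser count, 2 in each direction, a share close to the 13.5% of all genes. MVD, the decarboxylase that yields isopentenyl diphosphate, rose from 198, 199 and 205 CPM to 260, 276 and 265 CPM (0.41, SE 0.0853, FDR 0.000732), and MYLIP rose from 24.9, 26.4 and 24 CPM to 29.8, 30.3 and 31.6 CPM (0.29, FDR 0.000297). EBP (-0.21, FDR 0.0299) and SREBF2 (-0.22, FDR 0.000838) fell. HMGCS1 went from 1080, 1116 and 1096 CPM to 908, 886 and 872 CPM, a change of -0.30 (SE 0.133) that did not pass (FDR 0.137), although the libraries did not overlap.

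In the kinase-dead lines no member was called. In dKO-8M both tools called 0 members, where 0.015% of all genes were called, and 10 members had an unadjusted p under 0.05, all lower, against 9.55% of all genes. In dKO-19M both tools called 0 members, where 0.09% of all genes were called, and 13 had an unadjusted p under 0.05, 12 of them lower, against 14.7% of all genes. The synthesis medians were -0.17 and -0.19, and all 18 enzymes lay below 0 in each line. At an FDR under 0.05 there was 1 member in dKO-8M, TM7SF2 (-0.23, FDR 0.0328), where 0.485% of all genes passed. In dKO-19M there were 2, MVD (-0.43, FDR 0.00322) and MVK (-0.25, FDR 0.00169), where 2.41% of all genes passed. HMGCS1 stood at 679, 759 and 749 CPM under vehicle and 617, 663 and 643 CPM under SNX631 in dKO-19M, a change of -0.19 (FDR 0.565) with no overlap. INSIG1 changed there by -0.15 (FDR 0.525), from 425, 419 and 402 CPM to 374, 371 and 375 CPM. Without replicate 1 of the dKO-19M vehicle group the synthesis median was -0.13 with 17 of 18 enzymes below 0, MVD no longer passed (-0.35, FDR 0.05), and MVK was the 1 member that did (-0.18, FDR 0.0494).

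Interactions compare these effects directly. The SNX631 effect in dKO-19 minus that in dKO-19M called 1 member, INSIG1, at -0.60 (SE 0.148, FDR 0.00566), where 2.07% of all genes were called. That call was lost when any of 11 of the 12 libraries was left out (FDR 0.0101 to 0.0162 with changes of -0.62 to -0.58) and kept without dKO-19M vehicle replicate 1. At an FDR under 0.05 there were 5 members, where 9.87% of all genes passed. HMGCS1 differed by -0.65 (FDR 0.0219), SREBF2 by -0.27 (FDR 0.00492) and TM7SF2 by -0.31 (FDR 0.00403). Without dKO-19M vehicle replicate 1 HMGCS1 did not pass (-0.60, FDR 0.0518), and the synthesis median went from -0.04 to -0.12. The effect in dKO-8 minus that in dKO-8M called MVD, at 0.75 (SE 0.12, FDR 5.85e-05), where 0.905% of all genes were called, and 2 members had an FDR under 0.05, where 6.2% of all genes did. MVD rose in dKO-8 and went from 273, 286 and 284 CPM to 221, 228 and 218 CPM in dKO-8M (-0.34, FDR 0.0598), so its libraries separated in opposite directions in the active and the kinase-dead line. Between the active lines, dKO-19 minus dKO-8, both tools called 0 members, where 0.885% of all genes were called. There, 20 members had an unadjusted p under 0.05, all negative, against 16.6% of all genes, and 9 had an FDR under 0.05, against 4.77%. TM7SF2 (-0.48, FDR 1.11e-05), DHCR7 (-0.38, FDR 0.00229), MVD (-0.51, FDR 0.00786), MYLIP (-0.32, FDR 0.0149) and INSIG1 (-0.56, FDR 0.0204) were among the 9, and HMGCS1 did not (-0.53, FDR 0.107).

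**Figure D2:**
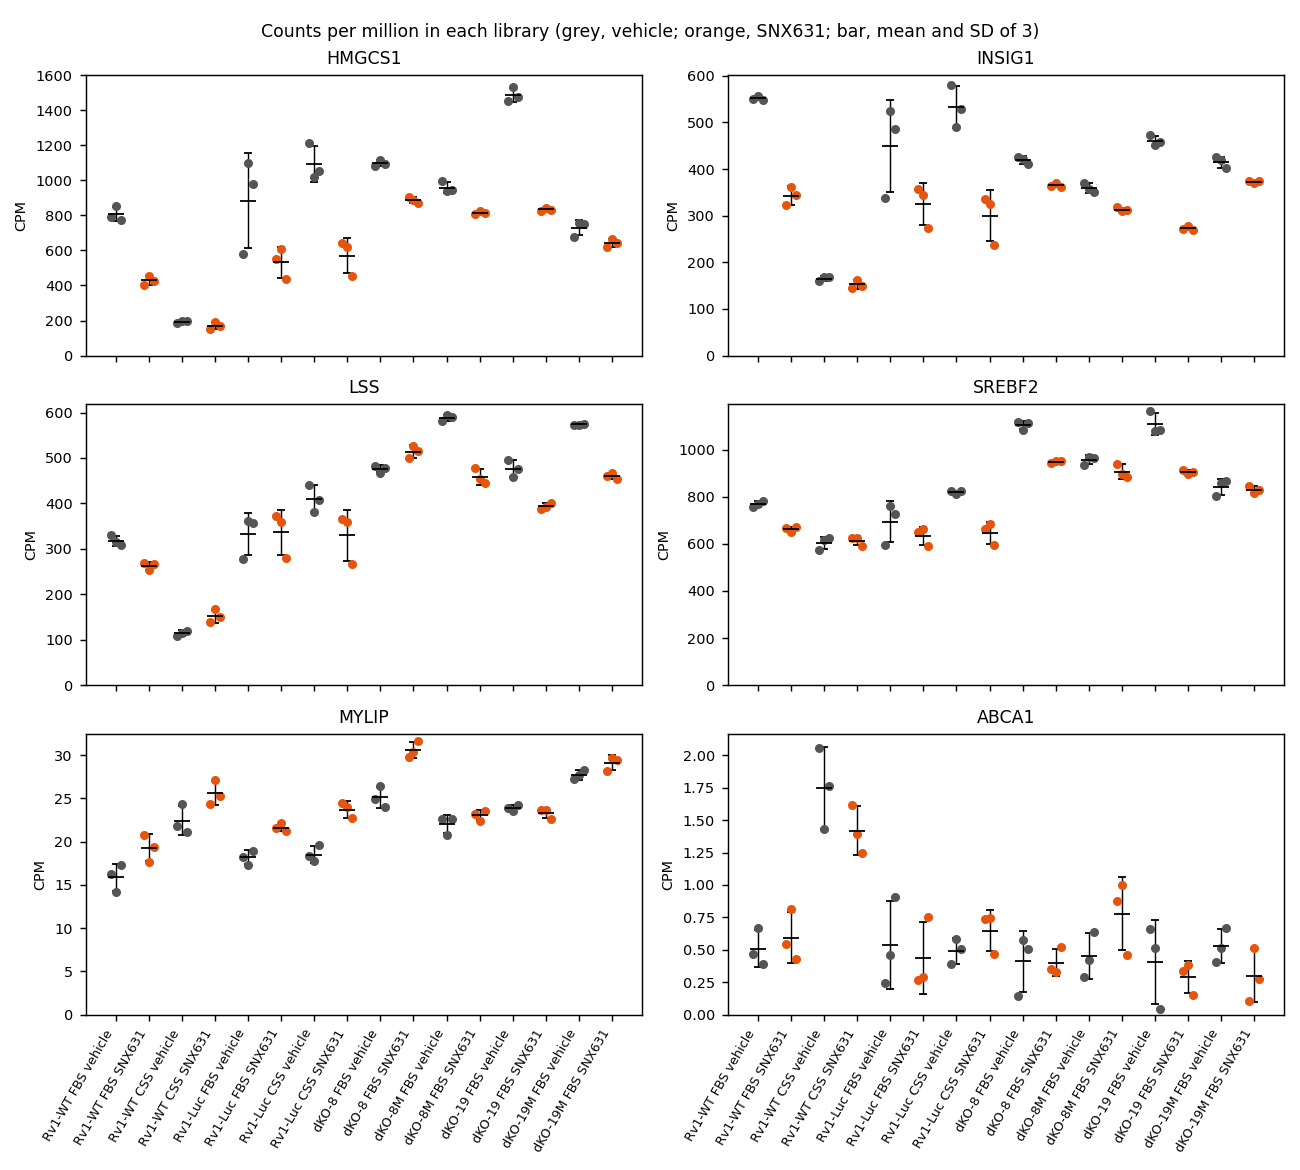
CPM of 6 members in each of the 48 libraries, by group, with vehicle in grey and SNX631 in orange, and bars for the mean and SD of 3 libraries; every axis starts at 0. HMGCS1 and INSIG1 drop under SNX631 in Rv1-WT in FBS, in Rv1-Luc in CSS and in dKO-19, and lie lowest in Rv1-WT in CSS.

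The next question was what the change of serum does to the pathway. In Rv1-WT under vehicle, CSS called more members than any other of the 15 comparisons of 3 against 3 libraries. Of the 18 synthesis enzymes 15 were called lower, with a median of -1.03, and over the members 18 were called lower and 2 higher, where 10.9% of all genes were called. HMGCS1 fell from 793, 853 and 776 CPM in FBS to 185, 200 and 199 CPM in CSS, a change of -2.05 (SE 0.143, FDR 3.68e-14), or 4.15-fold. INSIG1 fell from 550, 557 and 548 CPM to 159, 168 and 169 CPM (-1.74, SE 0.11, FDR 3.05e-15). In each of the 18 genes called lower, all CSS libraries lay below all FBS libraries.

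The fall ran along the whole route. In the mevalonate arm, MVK went from 147, 141 and 141 CPM to 71.8, 66.2 and 71.7 CPM (-1.03, FDR 1.13e-23), and MVD from 138, 124 and 121 CPM to 38.7, 39.2 and 49.5 CPM (-1.58, FDR 2.81e-15). PMVK, the kinase between them, was unlike its neighbours at 70.1, 68 and 68.1 CPM in FBS and 68.3, 69.4 and 77.4 CPM in CSS (0.06, FDR 0.433). In the isoprenoid and squalene steps, IDI1, FDPS, FDFT1, SQLE and LSS changed by -1.35, -0.80, -1.18, -1.03 and -1.48. FDFT1 went from 1020, 1061 and 1058 CPM to 440, 469 and 478 CPM (FDR 7.88e-15), and SQLE from 149, 149 and 141 CPM to 73, 68.5 and 73.4 CPM (FDR 1.81e-11). These are the enzymes that close the sterol skeleton and the reactions that lead up to it. In the steps after lanosterol, MSMO1, a methylsterol oxidase, went from 428, 466 and 456 CPM to 146, 144 and 151 CPM (-1.61, FDR 5.59e-16), EBP from 135, 139 and 133 CPM to 48.6, 56.3 and 58.9 CPM (-1.31, FDR 5.35e-19), and DHCR7 from 408, 387 and 383 CPM to 186, 196 and 206 CPM (FDR 4.04e-18). HSD17B7, NSDHL and SC5D, which act on the sterol ring between them, were also called lower, at -1.03, -0.88 and -0.66. CYP51A1, the lanosterol demethylase (-0.50, FDR 1.94e-07), and TM7SF2 (-0.31, FDR 1.14e-05) fell by less than 1.5-fold. ACAT2, which joins acetyl-CoA units at the start, changed by -1.19.

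Among the sensing genes SREBF1 was called lower (-0.60, FDR 2.71e-09) and SREBF2 fell by less than 1.5-fold, from 755, 770 and 781 CPM to 575, 615 and 623 CPM (-0.35, FDR 3.61e-08). SCAP (0.06, FDR 0.342) and INSIG2 (-0.18, FDR 0.157) did not pass. STARD4, which carries cholesterol between membranes and is a target of SREBP2, fell from 155, 159 and 150 CPM to 85.9, 88.5 and 83.5 CPM (-0.85, FDR 1.21e-10).

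The 3 LXR targets rose. ABCA1 went from 8, 10 and 6 counts in FBS to 37, 23 and 34 counts in CSS, or from 0.47, 0.669 and 0.389 CPM to 2.06, 1.43 and 1.76 CPM, a change of 1.78 (SE 0.422, FDR 0.000367). The ranges did not overlap, and the SE reflects the few counts. ABCG1 went from 2.35, 2.41 and 1.43 CPM to 3.06, 3.53 and 3.68 CPM (0.73, SE 0.238, FDR 0.00976), a call at the margin that DESeq2 did not make (FDR 0.0304) and that was lost when 5 of its 6 libraries were left out 1 at a time. MYLIP went from 16.2, 14.2 and 17.3 CPM to 21.8, 24.3 and 21.1 CPM (0.49, SE 0.0708, FDR 4.3e-08). The list median was 0.73 against -1.03 for the synthesis enzymes.

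Under SNX631 the same change of serum had a smaller synthesis median. In Rv1-WT 12 synthesis enzymes and INSIG1 were called lower and SOAT1 was called higher, where 7.83% of all genes were called, and the synthesis median was -0.67. At an FDR under 0.05 there were 24 members, where 40.6% of all genes passed. HMGCS1 changed by -1.33 (FDR 1.65e-09), from 405, 455 and 428 CPM to 152, 193 and 166 CPM, and SOAT1 by 0.62 (FDR 2e-16). SQLE was called at -0.60 (FDR 2.51e-06), a value just past 1.5-fold. ABCA1 changed by 1.28 (FDR 0.0114), without a call, and MYLIP rose by 0.40 (FDR 1.3e-06). This contrast and the one under vehicle give the interaction already described.

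In Rv1-Luc the same media gave no such fall. Under vehicle edgeR and DESeq2 each called 0 members, where 1.49% of all genes were called. There, 16 members had an unadjusted p under 0.05, all of them higher, against 25.8% of all genes, and 7 had an FDR under 0.05, against 14% of all genes. All 18 synthesis enzymes lay above 0, with a median of 0.17. Without FBS vehicle replicate 1 the median was 0.08, 14 of the 18 lay above 0, and 1 member had an FDR under 0.05. HMGCS1 measured 579, 1099 and 977 CPM in FBS and 1213, 1018 and 1055 CPM in CSS, which overlap (0.31, FDR 0.13), and the change was 0.08 (FDR 0.729) without FBS vehicle replicate 1. SREBF2 had the lowest FDR (0.24, FDR 0.000308), from 596, 760 and 727 CPM to 823, 812 and 823 CPM, and changed by 0.14 (FDR 0.0295) without that library. ABCA1 (-0.11, FDR 0.913) and MYLIP (0.03, FDR 0.823) did not pass. The plasma cell markers JCHAIN (-2.45) and IGHA1 (-4.29) were called lower in the same comparison. Under SNX631 both tools again called 0 members, where 1.51% of all genes were called, 3 members had an unadjusted p under 0.05, against 25.2% of all genes, and the synthesis median was -0.06.

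**Figure D3:**
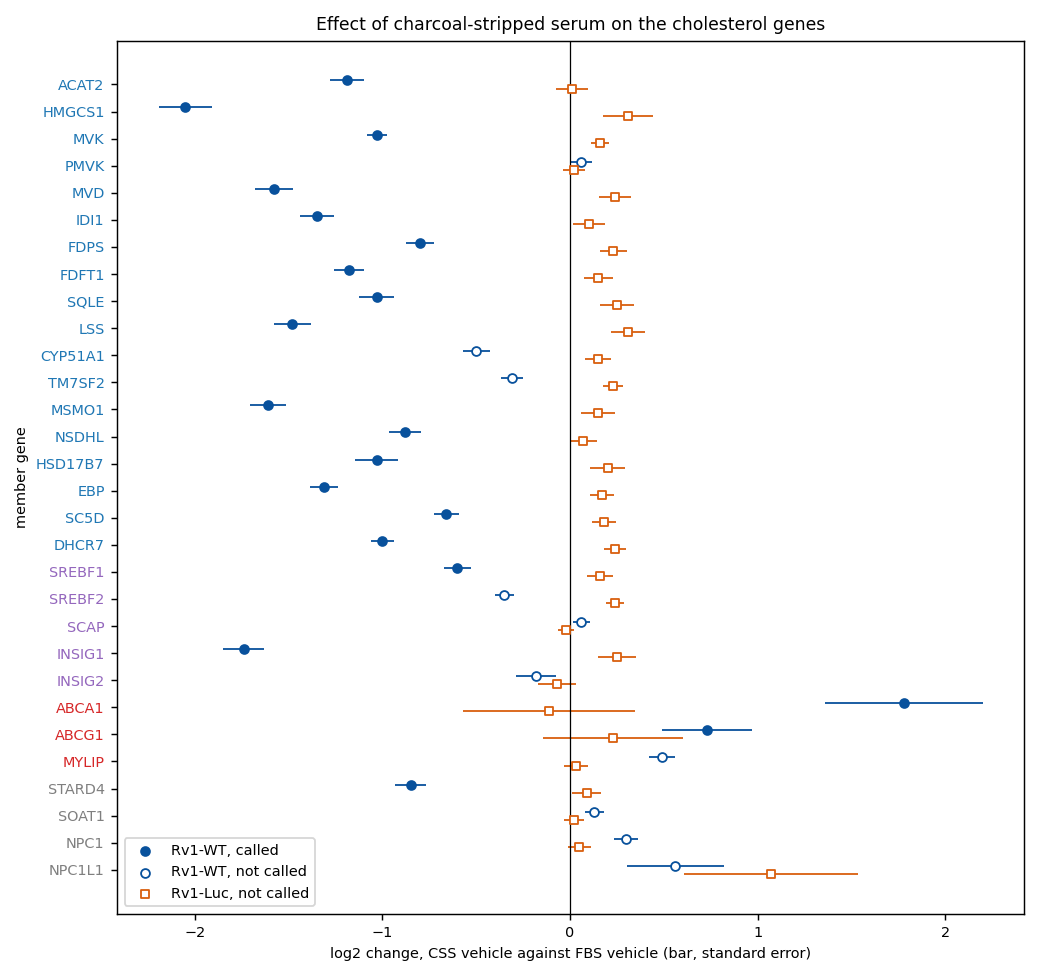
Log2 change of each member in CSS against FBS under vehicle, with its standard error, in Rv1-WT (blue circles) and Rv1-Luc (orange squares); filled marks are called. In Rv1-WT the synthesis genes lie to the left, down to HMGCS1 at -2.05, with ABCA1, ABCG1 and MYLIP to the right, while in Rv1-Luc the synthesis genes lie between 0.01 and 0.31.

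That the lines differ in their response to CSS was tested by the interaction, the change in Rv1-Luc minus that in Rv1-WT. It called 20 members, all with a higher value in Rv1-Luc, where 8.65% of all genes were called, and 16 of the 18 synthesis enzymes were among them, with a median of 1.23. By the looser count 24 members passed, where 34.1% of all genes did. HMGCS1 differed by 2.36 (SE 0.194, FDR 8.27e-12), INSIG1 by 1.98 (SE 0.15, FDR 1.17e-12), MVD by 1.82 (FDR 3.59e-13), LSS by 1.79 (FDR 8.1e-13) and MVK by 1.19 (FDR 4.79e-20). The 2 enzymes not called were PMVK (-0.04, FDR 0.752) and TM7SF2 (0.54, FDR 1.37e-07). SREBF1 (0.77), SREBF2 (0.59) and STARD4 (0.94) were called as well. LXR targets lay on the other side, with MYLIP at -0.46 (FDR 0.000103), ABCA1 at -1.89 (FDR 0.0152) and ABCG1 at -0.50 (FDR 0.434). Without Rv1-Luc FBS vehicle replicate 1 the counts were 18 higher and 1 lower with a synthesis median of 1.12. The calls of CYP51A1 (0.53) and SREBF2 (0.49) were then lost and ABCA1 was called lower (-2.25, FDR 0.00377). The 2 lines differ also in depth and in plasma cell marker counts. Under vehicle, depth overlapped between FBS and CSS within Rv1-WT (14.6 to 16.6 and 15.1 to 18.2 M) and within Rv1-Luc (21.1 to 23.6 and 20.7 to 27.3 M). The plasma cell marker sums of Rv1-Luc did not overlap between media under vehicle. The part of depth and of these markers in the difference was not tested, and no label gives a batch.

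The lines were also compared with each other under vehicle in FBS. The kinase-dead against the active CDK19 line, dKO-19M against dKO-19, had 2 members called lower, a share close to the 7.6% of all genes called. At an FDR under 0.05 there were 16 members, where 33.3% of all genes passed. FDFT1 stood at 2130, 2084 and 2066 CPM in dKO-19 and 1325, 1208 and 1211 CPM in dKO-19M (-0.75, SE 0.0771, FDR 8.03e-10), and HMGCS1 at 1452, 1535 and 1477 CPM and 679, 759 and 749 CPM (-1.03, SE 0.134, FDR 1.49e-07). Both separated without overlap, and without dKO-19M vehicle replicate 1 the changes were -0.80 and -0.99. SREBF2 was lower by 0.40 on the log2 scale (FDR 1.56e-09), while MVD was higher (0.55, FDR 3.41e-06), so that the enzymes did not move as 1 block and their median was -0.10 (-0.15 without that library). For CDK8, dKO-8M against dKO-8, both tools called 0 members, where 7.03% of all genes were called. There, 14 members had an unadjusted p under 0.05, against 38.9% of all genes, and 7 had an FDR under 0.05, a smaller share than the 30.5% of all genes. HMGCS1 differed there by -0.19 (FDR 0.296), STARD4 by 0.54 (FDR 1.79e-06) and MVD by 0.48 (FDR 2.59e-05).

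Rv1-Luc against Rv1-WT called 4 members lower and 0 higher, a smaller share than the 17.8% of all genes called. At an FDR under 0.05 there were 18 members, 7 higher and 11 lower, where 52.5% of all genes passed. Without Rv1-Luc FBS vehicle replicate 1, 3 were called lower, and 12 were higher and 8 lower at an FDR under 0.05. SOAT1 measured 106, 119 and 111 CPM in Rv1-WT and 55.1, 64.6 and 59.3 CPM in Rv1-Luc (-0.91, SE 0.0515, FDR 1.59e-22). NPC1L1, a sterol importer of the gut epithelium, had 43, 24 and 33 counts in Rv1-WT and 4, 7 and 6 counts in Rv1-Luc (-3.10, SE 0.38, FDR 5.08e-10). ABCG1 had 40, 36 and 22 counts and 11, 8 and 16 counts (-2.04, SE 0.315, FDR 1.7e-07). In each of these genes the lines did not overlap. The 4 plasma cell markers that passed the filter were all called higher in Rv1-Luc. MZB1, which did not pass it, had a mean of 0.141 CPM in Rv1-WT and 0.158 CPM in Rv1-Luc. Of 3 leukocyte markers 2 passed the filter and 1 was called higher, PTPRC (2.90, from a mean of 0.0439 to 0.349 CPM). SQLE measured 149, 149 and 141 CPM in Rv1-WT and 73, 108 and 108 CPM in Rv1-Luc (-0.61, FDR 6.38e-07), a call that was lost without Rv1-Luc replicate 1 (-0.44). The synthesis median was 0.10, and 0.20 without that library.

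Set side by side, the synthesis list and the LXR targets took opposite signs in some groups and not in others. As a median over the list relative to Rv1-WT in FBS under vehicle, the synthesis enzymes lay at -1.06, -1.10 and -1.04 (log2 CPM) in the libraries of Rv1-WT in CSS and the LXR targets at 0.58, 0.78 and 0.84. In Rv1-WT in FBS under SNX631 the values were -0.36, -0.30 and -0.31 for synthesis and 0.39, 0.61 and 0.29 for LXR targets. No library of either group crossed 0. The libraries of Rv1-WT in FBS under vehicle lay between -0.03 and 0.02 for synthesis, but at 0.03, 0.25 and -0.29 for LXR targets. The lowest LXR value under SNX631 in FBS, 0.29, was thus close to the highest under vehicle. In Rv1-Luc in CSS under vehicle, synthesis lay at 0.38, 0.23 and 0.28 and LXR targets at -0.30, 0.17 and 0.02, on both sides of 0. In dKO-19 the synthesis list went from 0.57, 0.48 and 0.54 under vehicle to 0.15, 0.19 and 0.17 under SNX631, while the LXR targets ran from -2.06 to 0.34 under vehicle, where ABCA1 and ABCG1 each fall to 1 count in 1 library. Of the 3 LXR genes only MYLIP is not limited by low counts. It rose under SNX631 at an FDR under 0.05 in Rv1-WT and Rv1-Luc in both media and in dKO-8, and not in dKO-8M (0.07, FDR 0.803), dKO-19 or dKO-19M (0.07, FDR 0.636). The effect on MYLIP differed between dKO-19 and dKO-8 (-0.32, FDR 0.0149), and dKO-8M against dKO-8 did not pass (0.22, FDR 0.125).

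**Figure D4:**
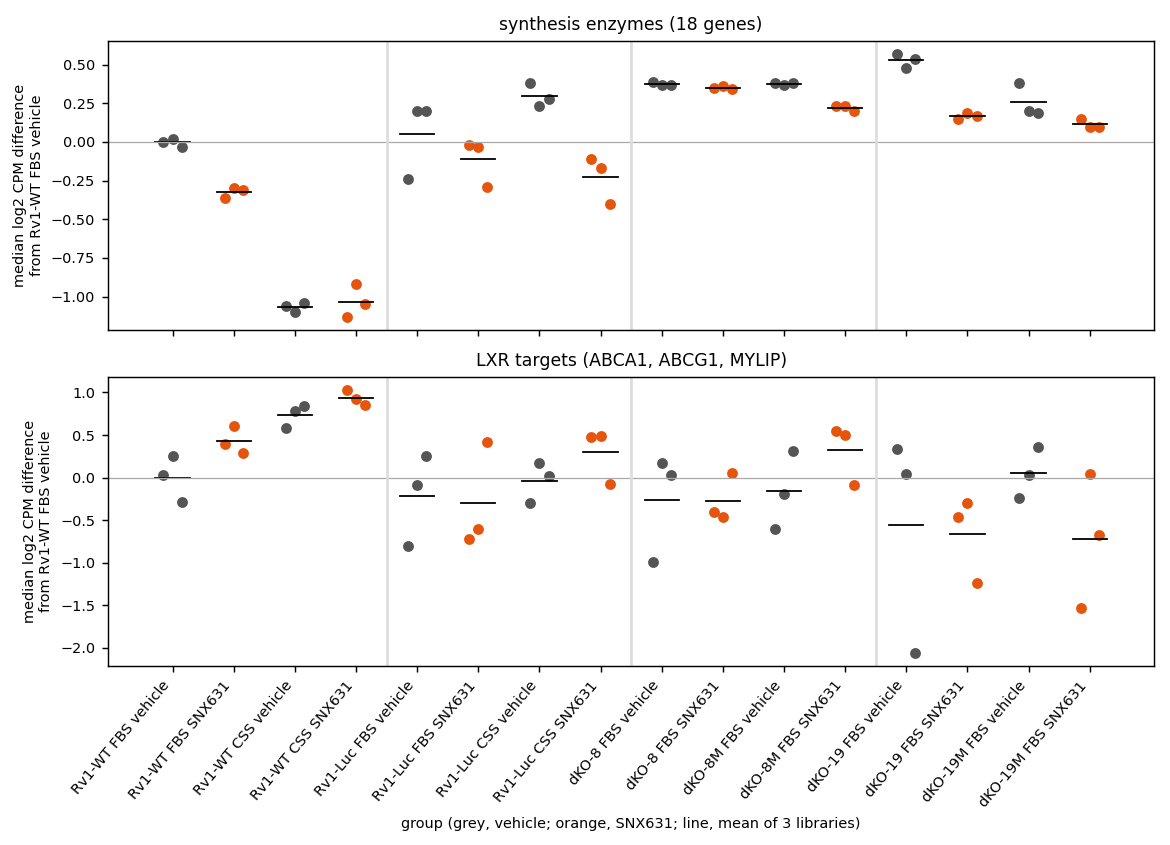
Median log2 CPM of the 18 synthesis enzymes (upper panel) and the 3 LXR targets (lower panel) in each library relative to the mean of Rv1-WT in FBS under vehicle, by group, with vehicle in grey, SNX631 in orange and a line for the mean of 3 libraries. Synthesis lies lowest in Rv1-WT in CSS, between -1.13 and -0.92 over both treatments, and the LXR panel spreads widely in the dKO lines, down to -2.06.

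The 4 genes of transport and storage did not move as 1 group. STARD4 was called in the direction of the synthesis enzymes in CSS in Rv1-WT and in the interaction by line (0.94, FDR 2.95e-08). SOAT1 was called in 3 comparisons, higher under SNX631 in CSS and in CSS under SNX631 in Rv1-WT and lower in Rv1-Luc against Rv1-WT. NPC1, which exports cholesterol from lysosomes, was called in none of the 22 comparisons. It rose in CSS in Rv1-WT from 39, 37.8 and 35.9 CPM to 47.3, 44.6 and 46.9 CPM (0.30, FDR 8.62e-05), and was lower in dKO-19M compared with dKO-19 (-0.35, FDR 3.19e-06). NPC1L1 was at or under 75 counts everywhere and was called only between Rv1-Luc and Rv1-WT.

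Neighbouring genes were counted from lists of related pathways. Of 8 genes of fatty acid synthesis and desaturation that SREBP1 drives, 6 were called lower and 0 higher in CSS in Rv1-WT under vehicle. Their median was -0.84, and 10.9% of all genes were called. The 4 with the lowest p-values were FADS2 (-0.94), ACLY (-0.79), ELOVL6 (-1.13) and ACSS2 (-1.61). In the interaction by line 7 of the 8 were called higher in Rv1-Luc, with a median of 0.89, where 8.65% of all genes were called. Under SNX631 0 of the 8 were called in FBS-grown Rv1-WT and 1 in CSS, ACSS2, at 0.61 (FDR 0.000457). The shares of all genes called were 2.39% and 4.23%. Of 6 partners and further targets of LXR, 0 were called higher and 1 lower in CSS in Rv1-WT, LPCAT3, a phospholipid acyltransferase (-0.63, FDR 2.82e-14), with a median of 0.22. Of 16 further sterol genes 13 passed the filter. In CSS in Rv1-WT 1 was called higher, FAXDC2 (0.71), and 1 lower, NPC2, the lysosomal partner of NPC1 (-0.82), with a median of 0.04. For lists this short, the calls among LXR partners and further sterol genes are near the 10.9% of all genes called.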

How the data were processed

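RNA was measured in 48 libraries, grouped by their titles into 16 groups of 3. The authors made strand-specific libraries, and the submitters' processing notes name FastQC, cutadapt 2.8, STAR 2.7.2b and featureCounts of Subread 2.0.3, with GRCh38.p13 for the human genome. The annotation release and the strand and multi-mapping settings of the counting are not given in the sources used here. The deposited values are expected counts per gene (estimated counts), which the authors made from the reads. They are read as such because 81.6% of the nonzero values are whole and the rest fractional, and how shared reads were divided is not stated. The table also holds 2 transgenes, which were left out. Values are less certain where counts were often fractional: CYP51A1 in 100% of libraries, SREBF1 in 62.5%, EBP in 60.4%, TM7SF2 in 50%, SREBF2 in 43.8%, NSDHL and MYLIP in 39.6%, MVD in 31.2% and HMGCS1 in 20.8%.

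Counts were rounded, genes were kept by filterByExpr (minimum count 10, minimum total 15; 20009 genes) and scaled by TMM. All libraries entered 1 fit, whose only terms were the group means (edgeR 4.0.16, limma 3.58.1, R 4.3.3; robust quasi-likelihood, two-sided, 32 residual degrees of freedom, biological coefficient of variation 4.2%). Of the 22 contrasts, 15 set 3 libraries against 3 and 7 were interactions. A gene was called at an FDR under 0.01 and over 1.5-fold. Library totals of 13.2 to 31.5 M and the count of 3 used as a floor bear on counting error only. The procedure was also run on simulated counts, for a single contrast, with means and spread taken from the main fit.

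The members, lists and tests were chosen with earlier results of these data known, so no list was tested. Values in every library are given for called members, up to 8 per comparison by lowest p, and for HMGCS1, SQLE, INSIG1, SREBF2, ABCA1, ABCG1 and MYLIP where they bear on the comparison. Of other pathway lists up to 4 genes were named by lowest p. The alternatives were 8 other settings, with DESeq2 1.42.0 in 2 of them, and leaving out each library in 48 fits. Promoters and motifs came from RefSeq windows on GRCh38.p14, and where a gene had several the first was taken.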

Additional observations from a re-analysis of the deposited data

Results flagged for a closer look

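Effects that differed between lines or media by their own test were looked at again. For the effect of CSS in Rv1-Luc minus that in Rv1-WT, 20 members were called, where 8.65% of all genes were called. Among the first enzymes of synthesis the differences on the log2 scale were 1.21 for ACAT2, 2.36 for HMGCS1, 1.19 for MVK and 1.82 for MVD. Along the isoprenoid and squalene steps they were 1.45 for IDI1, 1.03 for FDPS, 1.33 for FDFT1, 1.28 for SQLE and 1.79 for LSS. After lanosterol they were 0.65 for CYP51A1, 1.77 for MSMO1, 0.95 for NSDHL, 1.23 for HSD17B7, 1.48 for EBP, 0.84 for SC5D and 1.24 for DHCR7. SREBF1 differed by 0.77, SREBF2 by 0.59, INSIG1 by 1.98 and STARD4 by 0.94.

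By the stricter rule the effect of SNX631 was called different between media in Rv1-WT for 1 member, LSS, by 0.70 (0.295% of all genes). At an FDR under 0.05 with no fold limit, 16 members differed there (3.13% of all genes). MVD was the 1 member called between dKO-8 and dKO-8M, by 0.75 (0.905% of all genes). Between dKO-19 and dKO-19M it was INSIG1, by -0.60 (2.07% of all genes), a call lost when any of 11 of the 12 libraries was left out. Groups of 3 libraries are too small for a check of single outlying values.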

How the results depend on the processing

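Every call of a member kept its direction under every setting run, while the LXR median changed sign under some setting or left-out library in 9 of the 22 comparisons and the synthesis median in 2. Where a setting filtered genes anew, a list median covers only the list genes that passed. Of the 72 member calls, 72 remained with DESeq2 size factors, 71 with the DESeq2 Wald test, 70 with no filter, 67 by library size only, 67 with only the libraries compared and 36 with glmTreat, which tests against 1.5-fold. Over the leave-one-out fits, 540 of the repeated calls held and 30 were lost. Library size only moved the median of all genes by -0.07 to 0.06, the synthesis median of SNX631 in dKO-19 from -0.28 to -0.23 and that of CSS in Rv1-WT under vehicle from -1.03 to -0.97. The cause of the changes listed here was not tested.

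At an FDR under 0.05 with no fold limit, the members passing (beside the shares of all genes given above) under SNX631 were 20 and 8 in Rv1-WT (FBS and CSS), 8 and 23 in Rv1-Luc, 4 in dKO-8, 1 in dKO-8M, 15 in dKO-19 and 2 in dKO-19M. They were 24 for CSS in Rv1-WT under SNX631, 7 for CSS in Rv1-Luc under vehicle, 7 for dKO-8M against dKO-8, 16 for dKO-19M against dKO-19 and 18 for Rv1-Luc against Rv1-WT. Among the interactions they were 16 (SNX631 by medium in Rv1-WT), 1 (SNX631 by line), 2 (dKO-8 minus dKO-8M), 5 (dKO-19 minus dKO-19M) and 9 (dKO-19 minus dKO-8). With glmTreat 0 members were called for SNX631 in Rv1-WT, Rv1-Luc and dKO-19 and for each of the 3 interactions with 1 call, 4 for CSS in Rv1-WT under SNX631 and 1 for dKO-19M against dKO-19. With only the libraries compared the calls were 0 in Rv1-Luc in FBS and 1 in Rv1-Luc in CSS. The interaction by medium in Rv1-WT and that of dKO-19 minus dKO-19M had 2 calls each with no filter, with the DESeq2 Wald test and with only the libraries compared, and the latter 0 by library size only.

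Leaving out 1 library gave 0 to 2 calls for SNX631 in Rv1-Luc in FBS, 0 to 2 for the interaction by medium in Rv1-WT and 0 to 1 for dKO-19 minus dKO-19M. The synthesis median of SNX631 in dKO-19 then ran from -0.30 to -0.26. The LXR median ran from -0.01 to 0.47 for CSS in Rv1-Luc under vehicle (main 0.03; 0.47 without FBS vehicle replicate 3) and from -0.53 to 0.18 for Rv1-Luc against Rv1-WT (main 0.05), where it was -0.90 with only the libraries compared. That last setting filtered the genes anew. Its median is thus over the LXR targets that passed, need not cover all 3, and is not directly comparable with the main value.

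A replicate block, with the replicate number as a term, gave 19 calls instead of 20 for CSS in Rv1-WT under vehicle, where ABCG1 was lost, and changed no other call. No comparison had all same-numbered pairs correlated over 0.1, so the numbers do not pair the libraries.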

Other observations

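PLTP, the phospholipid transfer protein and a target of LXR, differed in opposite directions between the kinase-dead and the active lines. In dKO-8M it exceeded dKO-8 by 1.40 (log2, edgeR FDR 3.12e-08), and dKO-19M differed from dKO-19 by -1.51 (FDR 3.93e-12). Kinase activity and line cannot be told apart here. ELOVL6, a fatty acid elongase, responded to SNX631 differently in the active and the kinase-dead lines, by 0.68 for dKO-8 minus dKO-8M (FDR 1.32e-06) and by 0.60 for dKO-19 minus dKO-19M (FDR 4.87e-06), and LPCAT3 by 0.64 for dKO-8 minus dKO-8M (FDR 7.99e-10). In Rv1-Luc against Rv1-WT, SCD, the stearoyl-CoA desaturase, was called lower (-0.85, FDR 1.61e-07) as was FADS2, a fatty acid desaturase (-0.70, FDR 5.66e-19). Values without the libraries that stood apart from their group were not computed for the genes of this section.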
